A study of Mus musculus with 8 samples.

Results

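The AP-1 transcription factor genes are a set of 10 genes chosen by symbol, namely Fos, Fosb, Fosl1 and Fosl2 of the FOS subfamily, Jun, Junb and Jund of the JUN subfamily, Atf3, and the small MAF genes Maff and Mafk. All 10 were among the 32849 gene symbols listed in the count table, of which 22721 had at least 1 count. The set was picked with the difference between MGL KO and WT esophagi already known, so the members' values in that comparison are given as a description and carry no test. RNA was extracted from frozen esophagi of healthy mice, 4 MGL KO and 4 WT, with selection for poly(A) tails. MGL KO mice lack monoacylglycerol lipase, the enzyme that degrades the endocannabinoid 2-arachidonoylglycerol, in all tissues, and were bred in-house with WT littermates. The study used male and female mice and gives their age only as ranges over its experiments. The sample labels do not give the sex or age of each mouse. The labels number the samples within a group and say no more on their origin, so the spread between libraries may hold technical as well as animal variation.

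AP-1 is a dimer of basic leucine zipper (bZIP) proteins that binds a short DNA element in promoters and enhancers. JUN proteins pair with each other or with FOS proteins, whereas FOS proteins need a JUN partner, so the mix of subunits present sets which dimers can form. Several of the genes are immediate early genes: signals that reach existing factors such as SRF and CREB switch them on within minutes without new protein synthesis, and their short-lived mRNAs then decay. In squamous epithelium, the lining of the esophagus, AP-1 is known for its part in keratinocyte differentiation and in the response to stress and injury.

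The sequence before the transcription start shows which members carry these classical inducible elements. A CArG box, the site of SRF, lay within the 500 bases before the start of the canonical transcript of 2 members, Fos and Fosb, where 2.71% of 19334 protein-coding promoters held one. The letters TGACGT, the core of the site for CREB and ATF proteins, were found on either strand in 6 members (Fos, Fosb, Jun, Jund, Maff and Mafk) and in 9.78% of all promoters. TGACNTCA, an AP-1 and ATF element that overlaps TGACGT where N is G, was found in 3 members (Jun, Jund and Maff) and in 10.5% of all promoters. The letters TGAGTCA, the common AP-1 site, were found in 0 members and in 7.48% of all promoters, and TATAAA in 3 members (Fos, Junb and Fosl1) and in 22.1%. These are matches of letters and not measured binding. Printed here are the 300 bases from 310 to 11 before the start of the 5 members that held a CArG box or TGACNTCA, 5′ to 3′ on the strand of the gene, from GRCm39 with GENCODE mouse release 39. Capitals mark the searched motifs. The windows are chr12:85520348-85520647 on the forward strand for Fos, chr7:19043987-19044286 on the reverse strand for Fosb, chr4:94940470-94940769 on the reverse strand for Jun, chr8:71151289-71151588 on the forward strand for Jund and chr15:79231410-79231709 on the forward strand for Maff, whose canonical start lies downstream of the first annotated start of the gene.
Fos: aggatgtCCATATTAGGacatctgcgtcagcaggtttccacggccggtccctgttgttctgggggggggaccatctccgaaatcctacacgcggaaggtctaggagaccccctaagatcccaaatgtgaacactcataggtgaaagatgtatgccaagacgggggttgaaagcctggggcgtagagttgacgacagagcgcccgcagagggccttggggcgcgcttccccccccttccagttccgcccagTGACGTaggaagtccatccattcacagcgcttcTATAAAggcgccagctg
Fosb: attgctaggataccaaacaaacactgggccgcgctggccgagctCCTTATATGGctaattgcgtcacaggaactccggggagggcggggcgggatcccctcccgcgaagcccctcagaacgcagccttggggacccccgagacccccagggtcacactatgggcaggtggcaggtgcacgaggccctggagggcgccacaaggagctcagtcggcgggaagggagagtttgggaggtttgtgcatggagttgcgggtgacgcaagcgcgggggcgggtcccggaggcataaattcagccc
Jun: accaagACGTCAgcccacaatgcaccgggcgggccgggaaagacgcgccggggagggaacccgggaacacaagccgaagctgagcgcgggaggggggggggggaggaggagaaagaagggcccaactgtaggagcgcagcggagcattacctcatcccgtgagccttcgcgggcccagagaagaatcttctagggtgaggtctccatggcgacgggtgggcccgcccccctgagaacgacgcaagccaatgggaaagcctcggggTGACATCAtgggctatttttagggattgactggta
Jund: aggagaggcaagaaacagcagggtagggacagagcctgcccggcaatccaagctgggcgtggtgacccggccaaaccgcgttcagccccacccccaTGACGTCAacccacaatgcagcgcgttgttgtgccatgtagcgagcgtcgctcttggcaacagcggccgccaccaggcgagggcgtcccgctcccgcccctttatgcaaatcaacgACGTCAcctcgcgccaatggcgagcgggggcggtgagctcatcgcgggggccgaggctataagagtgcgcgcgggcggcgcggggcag
Maff: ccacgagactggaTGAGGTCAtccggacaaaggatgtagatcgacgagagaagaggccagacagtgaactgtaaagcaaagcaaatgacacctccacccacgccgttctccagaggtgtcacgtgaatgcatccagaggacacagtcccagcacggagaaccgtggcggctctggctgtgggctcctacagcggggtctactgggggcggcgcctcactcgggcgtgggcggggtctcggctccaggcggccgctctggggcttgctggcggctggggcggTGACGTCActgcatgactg
In Fos the capitals are, in order, the CArG box from 303 to 294 bases before the start, TGACGT from 60 to 55 and TATAAA from 27 to 22. In Fosb the CArG box lay from 266 to 257 bases before the start. In Jun they are TGACGT read on the other strand and TGACATCA from 45 to 38 bases before the start, in Jund TGACGTCA and a further TGACGT read on the other strand, and in Maff a pair of TGACNTCA matches, the farther read on the other strand and the nearer being TGACGTCA from 29 to 22.

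Exon structure followed the subfamilies. Fos (chr12:85520658-85524047), Fosb (chr7:19036621-19043976), Fosl1 (chr19:5497575-5505974), Fosl2 (chr5:32292707-32315186) and Atf3 (chr1:190902493-190950241) each have 4 exons in the canonical transcript, and Maff (chr15:79230821-79243276) and Mafk (chr5:139776804-139788408) have 3. Jun (chr4:94937271-94940459), Junb (chr8:85701113-85705359) and Jund (chr8:71151599-71153265) consist of 1 exon each. No member lies on chromosome 6, where Mgll is. The reads' use of strand in counting is not given in the sources used here, and all members but Fos and Fosb overlap a gene on the opposite strand. For Fosl1 that is Ccdc85b, for Junb Prdx2 and for Mafk Tmem184a, so reads of these pairs may not be told apart.

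The pentamer ATTTA, found in the 3′ UTRs of many unstable mRNAs, was densest in Fos among the members, with 4 copies in 818 bases or 4.89 per kb. Over 17881 genes the median was 1.32 per kb, and 6.6% had at least the density of Fos. Junb had 4.10 per kb, Maff 3.27, Jun 3.24, Atf3 2.52, Mafk 2.34, Jund 1.87, Fosl2 1.72 and Fosl1 1.56. Fosb, the nearest relative of Fos, had the lowest density, with 1 copy in 2148 bases.

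The deposited counts summed to between 13479069 and 17090152 per library, and values here are CPM, a library's counts brought to a common total, after scaling by edgeR's TMM factors, which ranged from 0.82 in MGL KO replicate 2 to 1.11 in MGL KO replicate 4. A count of 0 allows up to 3 counts, or 0.167 to 0.271 CPM, for counting error only. Mgll, the targeted gene, was at 12.6 to 16.0 CPM in MGL KO and 66.6 to 88.3 in WT libraries (edgeR's quasi-likelihood test, adjusted p = 0.000133, log2 fold change -2.57 with a standard error of 0.13). Markers of squamous epithelium, skeletal muscle and smooth muscle, the main tissues of the mouse esophagus, were detected in every library. Some libraries stood apart in tissue content. MGL KO replicate 2 had the highest summed skeletal muscle markers (88558 CPM, others 35098 to 74409) and the lowest squamous markers (4740, others 5460 to 17943), and WT replicate 3 was the extreme of its group in the same direction. MGL KO replicate 4 held 8975 CPM of 6 airway secretory markers, against 52.4 or less in every other library. In whole tissue, fewer cells of a type and less RNA per cell cannot be told apart.

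Of the 10 members, 9 passed the filter on low counts that left 14864 genes for the comparison. Fosl1 did not pass, and Fosb reached the filter's count level in 3 of 4 WT and 4 of 4 MGL KO libraries. MGL KO had the higher mean level in 8 of these 9 members, and in 6 of them (Fos, Fosb, Jund, Atf3, Maff and Mafk) the MGL KO libraries were all above the WT libraries. Over all genes tested, 53.0% had a log2 fold change over 0 and 2.72% had all MGL KO libraries above all WT libraries, with 6.02% separated in either direction. The median log2 fold change was 0.82 over the 9 members and 0.02 over all genes tested. Edge cases of the separation were Jund, whose lowest MGL KO library was 1.06 times its highest WT library, just inside it, and Jun, for which this ratio was 0.964, just outside. After adjustment over all genes, 0 of 9 members passed 0.05 by edgeR's quasi-likelihood test, where 0.0471% of all genes did, 0.0202% as higher in MGL KO. With an unadjusted p, 8 of 9 were under 0.05, all as higher, where 8.65% of all genes were in either direction and 4.35% as higher. DESeq2 called 5 members and 0.922% of all genes, the exact test of edgeR 2 members and 0.431% of all genes, and limma-voom with quality weights 0 members and 0.168% of all genes. Because the genes were chosen from this same comparison, nothing is read from these counts.

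**Figure D1:**
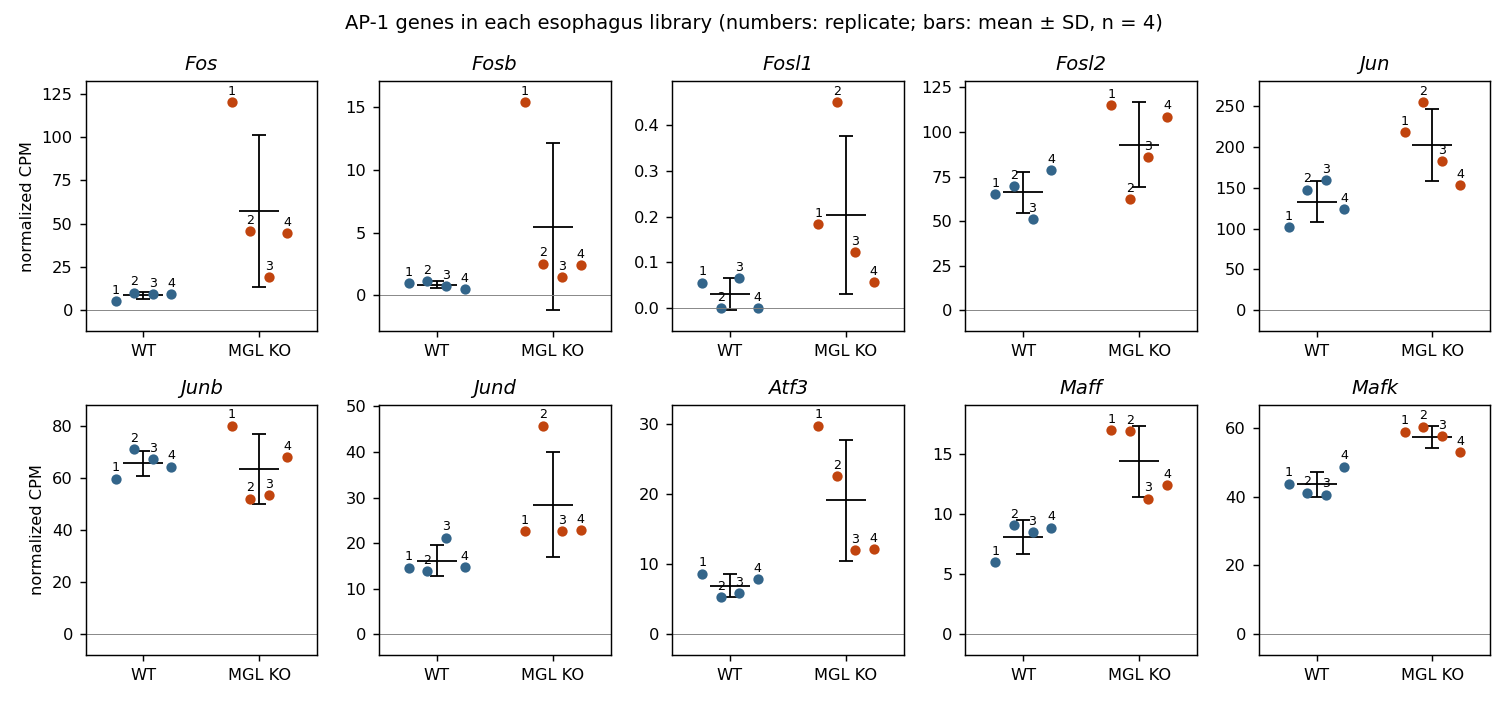
Normalized CPM (vertical axis, a separate linear scale per gene) of the 10 AP-1 genes in WT (blue) and MGL KO (red) esophagus libraries; each point is a library with its replicate number, and bars are the mean ± SD of 4 libraries. In Fos and Fosb, MGL KO replicate 1 lies far above the other libraries, at 120.4 and 15.4 CPM, while in Mafk the MGL KO libraries lie close together.

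The FOS subfamily held the members with the greatest differences. Fos, the founding subunit and a classical immediate early gene, was at 120.4, 45.7, 19.0 and 44.7 CPM in MGL KO replicates 1 to 4 and at 5.30, 10.2, 9.53 and 9.52 CPM in WT replicates 1 to 4. The groups did not overlap, and the MGL KO libraries spread 6.34-fold between lowest and highest against 1.93-fold in WT. MGL KO exceeded WT by a log2 fold change of 2.73 (standard error 0.52), or 6.65-fold. Without MGL KO replicate 1, the highest library, it was 2.08, and without MGL KO replicate 3, the lowest of its group, 3.03. WT replicate 1 was lowest of all.

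Fosb encodes a close relative of Fos that is also induced as an immediate early gene. It was scarce, at 15.4, 2.53, 1.48 and 2.42 CPM in MGL KO and 1.00, 1.14, 0.723 and 0.522 CPM in WT libraries. These levels rest on few counts, with 57 counts over the 4 WT libraries and 252 of the 347 MGL KO counts in replicate 1. Every MGL KO library was above every WT library, but the difference depended on that replicate: the log2 fold change was 2.67 (standard error 0.77) with it and 1.32 without it.

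Fosl2 encodes FRA2, a FOS relative without the strong activation domain of FOS. It was at 115.1, 62.4, 85.8 and 108.6 CPM in MGL KO and 65.0, 69.8, 51.3 and 78.8 CPM in WT libraries. The groups overlapped through MGL KO replicate 2, which lay below 3 of the 4 WT libraries. Between groups the log2 fold change was 0.49 (standard error 0.20); it was 0.64 without that replicate and 0.37 without MGL KO replicate 1. Fosl1, which encodes the related FRA1, was close to absent, with 3, 5, 2 and 1 counts in MGL KO and 1, 0, 1 and 0 counts in WT libraries. All of these lie near or below the limit that a count of 0 allows, so no fold is given.

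Of the JUN subfamily, Jun, the main partner of Fos, was at 218.2, 254.8, 182.3 and 153.2 CPM in MGL KO and 101.4, 147.6, 159.0 and 124.1 CPM in WT libraries. A single crossing, MGL KO replicate 4 below WT replicate 3, made the groups overlap. The log2 fold change was 0.60 (standard error 0.19), or 0.72 without MGL KO replicate 4 and 0.48 without MGL KO replicate 2.

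Jund, which encodes a broadly expressed JUN protein that can restrain growth, was at 22.6, 45.8, 22.6 and 22.8 CPM in MGL KO and 14.6, 13.9, 21.2 and 14.7 CPM in WT libraries. In each group 3 libraries lay close together and 1 lay well above them. The log2 fold change of 0.82 (standard error 0.27) was 0.50 without MGL KO replicate 2 and was 0.99 without WT replicate 3.

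Junb encodes a JUN protein that is a weaker activator than JUN and can oppose it. Its values were 80.3, 52.2, 53.5 and 68.3 CPM in MGL KO and 59.9, 71.3, 67.5 and 64.5 CPM in WT libraries. The MGL KO libraries lay on both sides of all WT libraries, with replicate 1 above and replicates 2 and 3 below them. The log2 fold change of -0.05 (standard error 0.15) ranged from -0.18 to 0.04 with each library left out in turn. Junb was the member whose mean was not higher in MGL KO.

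Atf3, a stress-induced gene whose protein pairs with JUN proteins and can repress transcription, was at 29.8, 22.6, 12.0 and 12.1 CPM in MGL KO and 8.65, 5.25, 5.85 and 7.89 CPM in WT libraries. The groups did not overlap, and MGL KO replicates 1 and 2 lay well above replicates 3 and 4. The log2 fold change was 1.47 (standard error 0.33), with 1.18 to 1.64 when each library was left out in turn.

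The small MAF proteins lack an activation domain and act through partners such as NFE2-related and BACH factors. Maff, the inducible one, was at 17.0, 16.9, 11.3 and 12.4 CPM in MGL KO and 5.97, 9.08, 8.48 and 8.87 CPM in WT libraries, which gave 0.83 as log2 fold change (standard error 0.20). Mafk was at 59.0, 60.4, 57.6 and 52.9 CPM in MGL KO and 43.8, 41.2, 40.6 and 48.8 CPM in WT libraries, which gave 0.40 (standard error 0.09). Both genes separated the groups. Mafk had the smallest difference of the separated members and also the least spread, with a coefficient of variation of 5.65% in MGL KO libraries against 76.2% for Fos.

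Levels of different genes were compared as CPM per kb of the canonical transcript. In WT esophagi, Jun (41.7 ± 8.02, SD, n = 4) and Junb (36.4 ± 2.66) led, and their libraries overlapped, from 31.8 to 49.9 and from 33.1 to 39.4. Mafk followed at 15.3 ± 1.32 CPM per kb, above every WT library of the genes after it. Jund (9.67 ± 2.06) and Fosl2 (9.50 ± 1.65) overlapped each other, as did Maff (4.14 ± 0.736), Fos (4.09 ± 1.07) and Atf3 (3.48 ± 0.815). Fosb was far lower at 0.224 ± 0.0736 CPM per kb, and Fosl1 lowest.

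In MGL KO esophagi, Jun (63.4 ± 13.8 CPM per kb) and Junb (35.2 ± 7.37) again had the highest means. Fos stood at 27.2 ± 20.7 CPM per kb, which moved its mean from rank 7 in WT to rank 3, although its libraries, from 8.98 to 57.0, overlapped those of Jun, Junb, Mafk, Jund, Fosl2 and Atf3. With all annotated exons as the length, the ranks of Fos were 6 in WT and 3 in MGL KO, and Jund ranked above Mafk. The rank rested on MGL KO replicate 1: without it, the mean of Fos was 17.2 CPM per kb, below the means of Mafk and Jund, at rank 5, or 4 with all annotated exons.

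**Figure D2:**
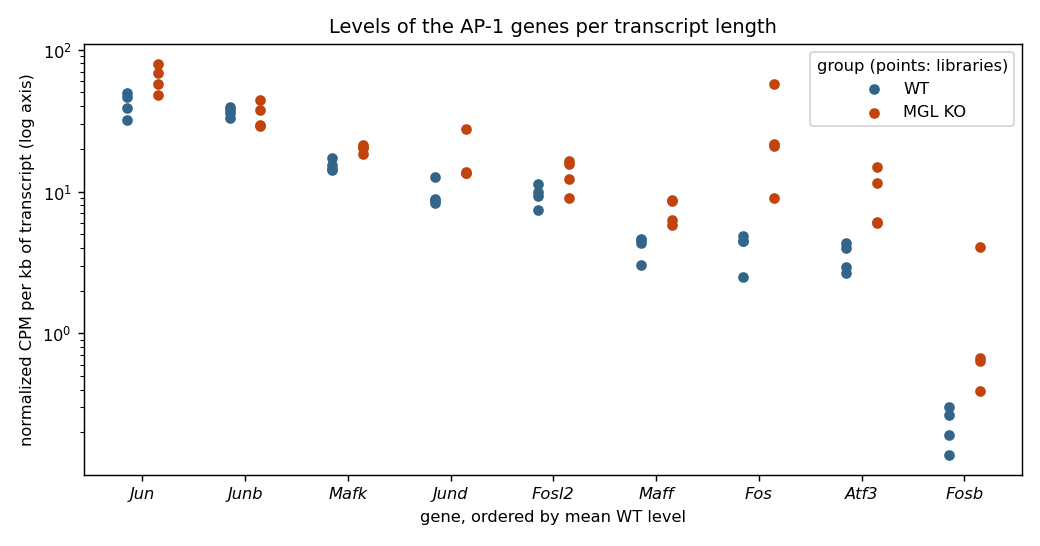
Normalized CPM per kb of canonical transcript (vertical log axis) for 9 AP-1 genes ordered by mean WT level; each point is a library, WT in blue and MGL KO in red, and Fosl1 is left out because it has libraries at 0. Fos stands with Maff and Atf3 in WT libraries, at 2.51 to 4.83 CPM per kb, and between 8.98 and 57.0 in MGL KO libraries.

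The makeup of the FOS subfamily transcripts differed accordingly. Fosl2 took 60.8% to 76.9% of the summed FOS subfamily level per kb in WT libraries and 21.2% to 56.6% in MGL KO libraries. Fos took 20.7% to 37.3% in WT and 41.3% to 73.4% in MGL KO libraries. Thus Fosl2 was the main FOS subfamily transcript in every WT library, and in MGL KO libraries Fos was in all but replicate 3. Within the JUN subfamily, Jun took 43.2% to 49.9% in WT and 48.3% to 58.6% in MGL KO libraries, Junb 37.3% to 45.0% and 21.2% to 38.0%, and Jund 8.88% to 12.8% and 10.7% to 20.2%. These ranges overlapped for all 3 JUN genes. The shares come from the same values that chose the members and are mRNA shares, not protein.

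The members did not all deviate from their group means in the same libraries. After subtraction of each group's mean log2(CPM + 1), 10 of the 36 pairs among the 9 tested members correlated above 0.5 over the 8 libraries (Pearson's r, given as a description; the points share depth and tissue content). Fos and Fosb moved together (r = 0.84), led by MGL KO replicate 1, without which r was 0.49. Fos also went with Junb (0.82, and 0.58 without that replicate) and with Maff (0.78, and 0.80 without it). Jun went with Maff (0.82, and 0.65 with library size alone as the scaling) and with Jund (0.67), the latter at 0.23 with library size alone and 0.45 without MGL KO replicate 2. Fosl2 and Jund ran opposite, with r = -0.88, and -0.72 without MGL KO replicate 2.

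**Figure D3:**
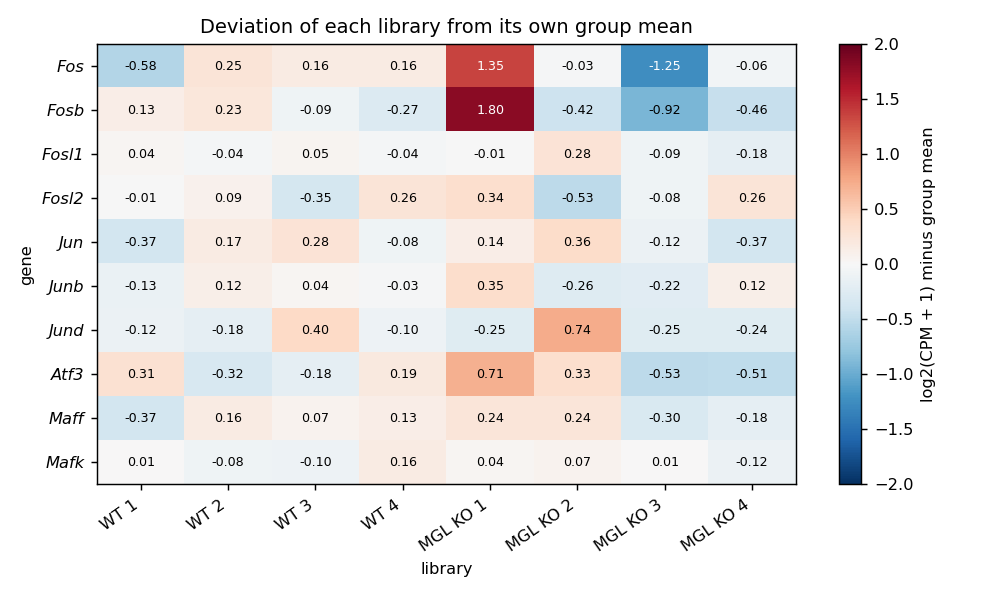
Deviation of each library (columns) from its own group's mean on the log2(CPM + 1) scale for each AP-1 gene (rows), with red above and blue below the mean. MGL KO replicate 1 is high for Fos (1.35), Fosb (1.80) and Atf3 (0.71), replicate 3 is low for the same genes, and Jund is highest where Fosl2 is lowest in each group.

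In each group the library with the highest Jund and the lowest Fosl2 was the one with the most skeletal muscle markers, while the other libraries did not follow these markers in order. In MGL KO replicate 2, Jund was highest at 45.8 CPM, Fosl2 lowest of its group at 62.4 CPM, and skeletal muscle markers highest. In WT replicate 3, Jund was highest of its group at 21.2 CPM, Fosl2 lowest at 51.3 CPM, and skeletal muscle markers again highest. A covariate was also fitted, the mean log2(CPM + 1) of the skeletal muscle markers rather than their sum. With it, the log2 fold changes were 0.85 for Jund and 0.42 for Fosl2, 2.72 for Fos and 1.47 for Atf3. No squamous, skeletal muscle or smooth muscle marker list separated the groups: the sums were 4740 to 17580 CPM in MGL KO and 5460 to 17943 in WT for squamous epithelium, and 6320 to 13510 and 6329 to 10292 for smooth muscle.

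**Figure D4:**
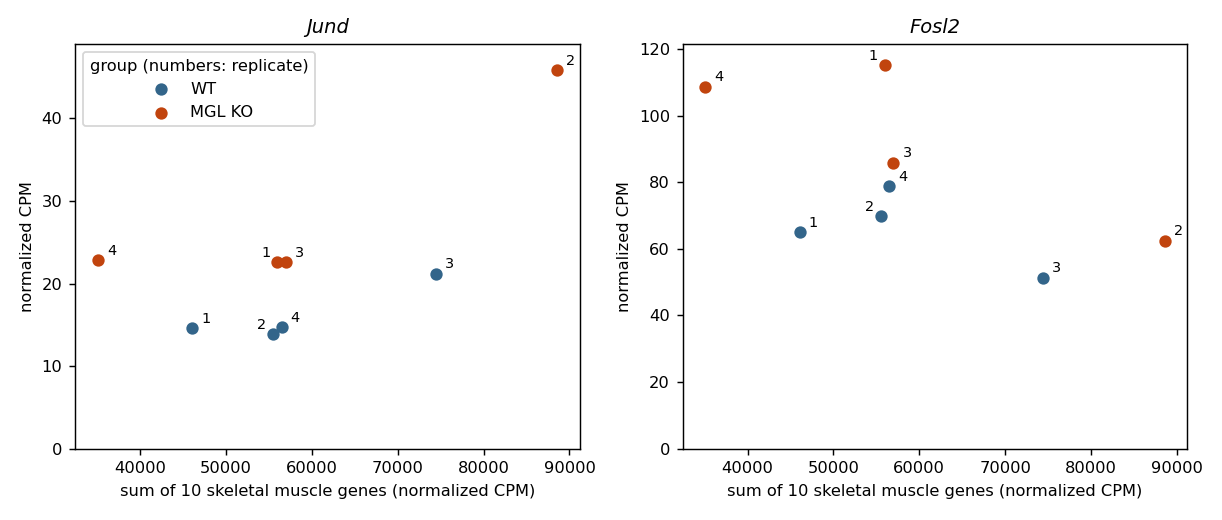
Normalized CPM (vertical axis) of Jund (left) and Fosl2 (right) against the summed level of 10 skeletal muscle genes in CPM (horizontal axis); each point is a library labelled with its replicate number, WT in blue and MGL KO in red. MGL KO replicate 2 and WT replicate 3 lie farthest right in their groups, with the highest Jund and the lowest Fosl2 of each.

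Some other marker lists leaned to 1 side in the comparison, with 0 genes called, and are given beside the members. Of 8 macrophage markers, 7 were lower in MGL KO at an unadjusted p under 0.05 and 0 after adjustment by edgeR's quasi-likelihood test, while their summed level overlapped (332 to 1567 CPM in MGL KO, 340 to 1315 in WT). All 8 fibroblast and all 8 endothelial markers had a log2 fold change below 0, with medians of -0.31 and -0.24. The 5 tested airway ciliated markers were all above 0, and their sums did not overlap (810 to 1308 CPM in MGL KO, 414 to 727 in WT). Eosinophil markers summed to 0.306 to 0.899 CPM in MGL KO and 0.114 to 2.06 CPM in WT, with 0 of 5 tested. The part of these cell types in the members' values was not tested. Without MGL KO replicate 4, the library with airway secretory transcripts, the members' log2 fold changes ran from -0.08 in Junb to 2.92 in Fosb.

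All 7 heat shock genes, some of which respond to stress of cells, had a log2 fold change above 0 (median 0.66). By edgeR's quasi-likelihood test, 0 passed the adjusted threshold and 5 had an unadjusted p under 0.05. The 3 that separated the groups were Hspa1a (log2 fold change 1.02, standard error 0.21), Hsp90aa1 (1.00, standard error 0.27) and Hspa1b (0.98, standard error 0.23). Hsp90aa1 separated them narrowly, with 263.2 CPM in its lowest MGL KO library and 248.6 CPM in its highest WT library. Its highest library was MGL KO replicate 4, at 686.9 CPM. Hspa1a and Hspa1b are near-identical copies, so the split of reads between them is uncertain. The part of a stress response in the members' values was not tested.

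The genes around AP-1 were taken as lists by role. Of 30 tested kinases and factors upstream, such as the MAP kinases and the SRF cofactors, 15 had a log2 fold change above 0 and 15 below, with a median of 0.00. By the quasi-likelihood test 0 passed the adjusted threshold, and 1 higher and 3 lower had an unadjusted p under 0.05. The higher one was Srf, which binds CArG boxes, with 133.9 to 162.4 CPM in MGL KO and 111.2 to 133.3 in WT libraries (log2 fold change 0.27, standard error 0.10). The lower ones were the SRF cofactor genes Mrtfa (-0.44, standard error 0.12) and Mrtfb (-0.21, standard error 0.09) and the p38 kinase activator gene Map2k6 (-0.48, standard error 0.19), of which Mrtfb was named after its value was seen. All 8 tested genes for turnover of AP-1 proteins and corepression were slightly above 0, at 0.08 to 0.19 with a median of 0.15, and 0 of them passed at either an adjusted or an unadjusted p under 0.05.

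Of 27 other bZIP genes, 24 were tested, 16 of them with a log2 fold change above 0 and a median of 0.12. None passed the adjusted threshold in the quasi-likelihood test. At an unadjusted p under 0.05, 5 were higher (Cebpd, Cebpb, Cebpg, Atf4 and Atf5) and 1 was lower (Maf), and 4 had all MGL KO libraries above all WT libraries (Cebpd, Cebpb, Cebpg and Jdp2). Atf4, Atf5, Maf and Jdp2 are named after their values were seen. Cebpd, an acute phase C/EBP factor gene, was at 44.3, 64.9, 62.6 and 55.8 CPM in MGL KO and 21.4, 18.0, 19.3 and 41.9 CPM in WT libraries. WT replicate 4 lay near the MGL KO libraries and the other WT libraries well below them. Its log2 fold change was 1.18 (standard error 0.27), and Cebpd was called by edgeR's exact test, DESeq2 and the fit without WT replicate 4. Cebpb and Cebpg, which encode dimer partners of the same family, had log2 fold changes of 0.56 (standard error 0.17) and 0.44 (standard error 0.13).

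Genes known as AP-1 targets were spread on both sides of 0. Of 25 listed, 18 were tested, 10 above 0 and 8 below, with a median log2 fold change of 0.04 and a range from -1.07 to 3.00. By the quasi-likelihood test 0 passed the adjusted threshold and 0 separated the groups, and 3 were higher at an unadjusted p under 0.05, Spp1 and Mt1 among them, and Hmox1 was lower, named after their values were seen. Spp1 owed its value to a single library, with 39.9 CPM in MGL KO replicate 2 and 0.329 to 1.77 CPM in all others.

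Of 24 other immediate early genes, 23 were tested and 21 had a log2 fold change above 0, with a median of 0.39. At an unadjusted p under 0.05, 11 were higher and 0 lower, and 7 separated the groups. Dusp1, a phosphatase gene that turns off MAP kinases, and Ccn1, a matrix protein gene, passed the adjusted threshold in the quasi-likelihood test, both with an adjusted p = 0.0494. Dusp1 was at 290.3, 191.8, 157.0 and 153.5 CPM in MGL KO and 48.2 to 63.0 CPM in WT libraries, a log2 fold change of 1.80 (standard error 0.21). As with Fos, MGL KO replicate 1 was highest. The calls were thin: without MGL KO replicate 1 only Dusp1 of this list passed, and neither gene passed when any other single library was left out. Ccn2 (log2 fold change 1.54, standard error 0.22), the nuclear receptor gene Nr4a3 (0.82, standard error 0.24) and Zfp36 (0.78, standard error 0.13), whose product promotes decay of mRNAs with AU-rich elements, also separated the groups. The list was put together with results of these data known and is no independent evidence of direction.

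**Figure D5:**
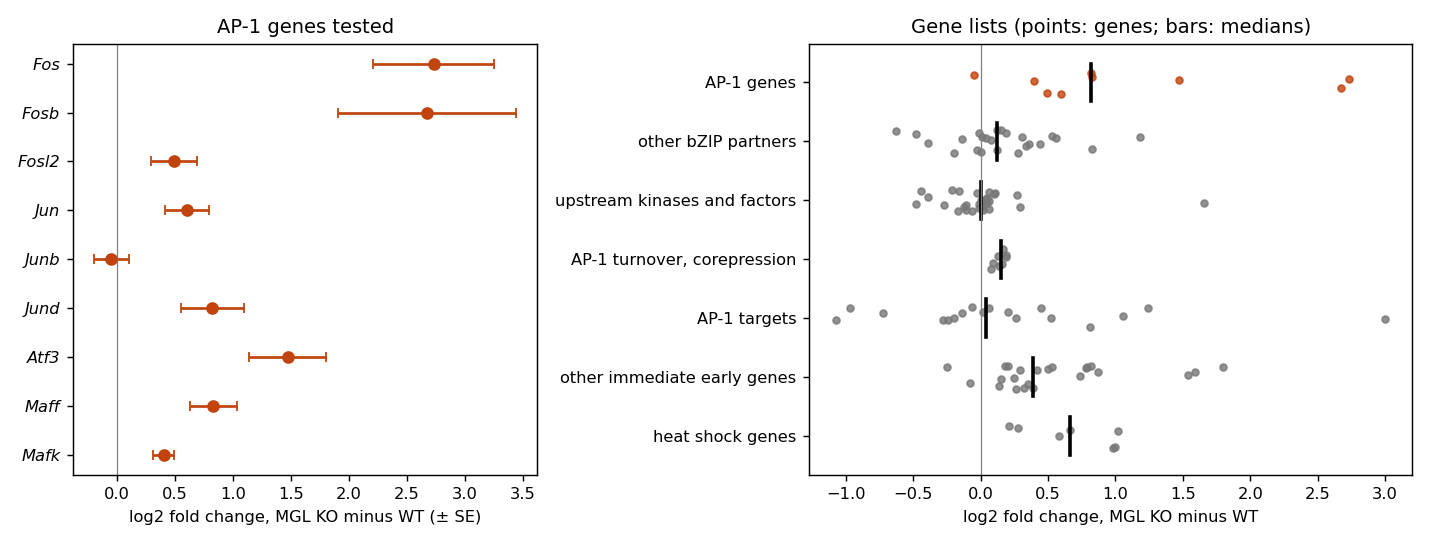
Left, log2 fold change of MGL KO over WT with its standard error for the 9 tested AP-1 genes; right, the same quantity for each tested gene (points) of the AP-1 set and 6 other lists, with black bars at the medians. The AP-1 median lies at 0.82, the other immediate early genes at 0.39, the heat shock genes at 0.66, and the AP-1 targets at 0.04.

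Genes outside the set were ranked by how closely they followed Fos across libraries once the group means were subtracted, among 11560 genes with a mean of at least 5 CPM. The highest correlations over the 8 libraries were those of Osgin2 (r = 0.98), Klhl9 (0.97), Rb1 (0.96), Fam8a1 (0.95) and Galnt5 (0.95). They stayed at 0.89 to 0.98 without MGL KO replicate 1. Between groups, the log2 fold changes of these genes were 0.35 for Osgin2, 0.04 for Klhl9, -0.23 for Rb1, 0.12 for Fam8a1 and -0.41 for Galnt5, and the groups overlapped for each of the 5, for Osgin2 only through MGL KO replicate 3 at 21.0 CPM against 21.1 CPM in WT replicate 2. With 8 libraries and this many candidates, high values are found readily, and they are given as a description.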

How the data were processed

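The authors selected poly(A) RNA, checked reads with FastQC 0.11.9, trimmed adapters with cutadapt, aligned to GRCm39 with STAR 2.7.10b and deposited whole-number read counts per gene symbol, without normalization. The annotation, counting tool and strand setting are not given in the sources used here. All value columns belonged to the 8 libraries. From these counts, filterByExpr at a minimum count of 10 (edgeR 4.0.16, R 4.3.3) kept 14864 genes, CPM were scaled by TMM factors, and the groups were tested with the quasi-likelihood F-test of edgeR, adjusted by Benjamini-Hochberg at 0.05. The standard error of a log2 fold change is its size over the root of F. The authors' methods name edgeR's exact test, an alternative here with DESeq2 1.42.0, limma-voom (limma 3.58.1) with quality weights, other scalings and filters, a replicate block, a skeletal muscle covariate, and each library left out. Steps were tested on simulated data. The count of separated members under other scalings and without single libraries, and the member correlations without libraries other than MGL KO replicates 1 and 4, and the levels per kb without MGL KO replicate 1 were added after the data were seen.

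The members and lists were chosen with earlier results of these data known. Named genes were the members, Mgll, per list the called genes and up to 3 others that separated the groups, and the 5 genes most like Fos. Gene models, promoters and 3′ UTRs of at least 100 bases came from GENCODE mouse release 39, where 30742 of 32849 symbols were found; a CArG box is CC, 6 bases of A or T, and GG. Libraries of a group differed by more than sampling noise (chi-square per degree of freedom at least 13.6 over genes with at least 20 counts).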

Additional observations from a re-analysis of the deposited data

Results flagged for a closer look

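In 60 groups of 4 libraries, 7 held a library far from the other 3 by Dixon's test, where chance flags about 1 in 20 groups, or 3. Among the members, Fos was low in WT replicate 1 (5.30 CPM, others at least 9.52), Fosb was high in MGL KO replicate 1 (15.4 CPM, others at most 2.53), and Jund was high in MGL KO replicate 2 (45.8 CPM, others at most 22.8) and in WT replicate 3 (21.2 CPM, others at most 14.7). The last 2 libraries had the highest skeletal muscle markers of their groups. Outside the set, Cebpd was high in WT replicate 4 (41.9 CPM, others at most 21.4), Cebpg was high in MGL KO replicate 2 (104.3 CPM, others at most 75.0), and Galnt5, which was picked for its likeness to Fos, was low in WT replicate 1 (9.65 CPM, others at least 13.5). No cause of these values was tested.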

How the results depend on the processing

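Against 0 members called by edgeR's quasi-likelihood test, the exact test called 2 (Fos and Atf3), the exact test without the filter 1 (Fos) and DESeq2 5 (Fos, Fosb, Atf3, Maff and Mafk); the cause was not tested. The other scalings, the filters, the replicate block, the muscle covariate, limma-voom and each library left out gave 0. The log2 fold change of Junb turned to 0.04 without MGL KO replicate 2 and 0.03 without MGL KO replicate 3, and ranged from -0.18 to 0.04 over the libraries left out. Members that separated the groups numbered 6 under the other scalings and 6 or 7 with a library left out. In the main comparison 2.72% of all genes tested separated as higher in MGL KO. That share is not given for the other settings, and groups separate more easily with fewer libraries, so nothing is read from these counts. Pairs correlating above 0.5 numbered 10, and were 11 by rank correlation, 10 with library size alone (not the same pairs: Jun with Jund and Atf3 with Mafk dropped below, and Fosl2 with Mafk and Fosb with Maff came above) and 8 to 14 with a library left out. Over all genes, 7 calls became 64 (exact test), 42 (exact test, no filter), 137 (DESeq2), 25 (limma-voom), 2 (no filter), 2 (replicate block), 27 (muscle covariate) and 2 to 5 with a library left out. The share of higher calls was 42.9%, and 83.3% with library size alone. Other immediate early genes called, 2 in the main comparison, were 5 by both exact tests and DESeq2, 4 by limma-voom and with the muscle covariate, 0 without a filter and with the replicate block, and 0 to 1 with a library left out. Other bZIP genes called went from 0 to 1 by both exact tests and DESeq2, and 0 to 1 with a library left out. Heat shock genes called went from 0 to 2 (exact test), 1 (exact test, no filter) and 3 (DESeq2). Same-numbered libraries correlated at -0.31 to 0.05 in their deviations from the group means. These values show no pairing by number but cannot exclude one, and the labels state none. The replicate block is therefore only a setting. At library totals from 13479069 to 17090152 counts, Fosl1 was not measurable, and Fosb rests on 57 WT counts.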
